A study of Homo sapiens with 28 samples.

Results

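The genes described are those of cellular iron uptake, storage and export: TFRC, STEAP3, SLC11A2, FTL, NCOA4, SLC40A1, ACO1 and IREB2. Probe sets were taken where the platform annotation gave a listed gene as their single symbol, which yielded 19 probe sets of 7 genes among 54675 probe sets and 19775 genes on the array. IREB2 was not analysed here. RNA came from 4 established human multiple myeloma lines, U266, MM.1s, KMS11 and 8226/S, and was hybridised to 28 Affymetrix arrays. Each line was treated with arsenic trioxide (ATO, an inorganic arsenical) at 2 µM for 6, 24 or 48 h. Each was also treated with darinaparsin (DAR, an organic arsenical in which the arsenic carries methyl groups and glutathione) for 6 or 24 h. The DAR dose was set per line, with 2 µM for 8226/S, 4 µM for U266, and 3 µM for the pair KMS11 and MM.1s. Between lines of unlike DAR dose, line and dose cannot be told apart. There was 1 array per line and treatment and 2 untreated arrays per line, numbered control 2 and control 1. ATO arrays were compared with control 2 of the same line and DAR arrays with control 1 of the same line. All cells grew in the same serum-supplemented medium, and every line stands here for 1 established culture, so the 4 lines served as the replicates of each treatment.

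Iron bound to transferrin enters cells through the transferrin receptor TFRC. In the endosome it is reduced by STEAP3 and moved to the cytosol by the divalent metal transporter SLC11A2. Spare iron is stored in ferritin, a shell of light chains (FTL) and heavy chains, and is released when the cargo receptor NCOA4 takes ferritin to the lysosome. Ferroportin, the product of SLC40A1, is the exporter. The iron regulatory proteins ACO1 and IREB2 bind hairpins called iron-responsive elements. Binding near the start of the FTL message holds back its translation, and binding near the end of the TFRC message stabilises it. The arrays measured messages, so ferritin translation lay outside the measurement.

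The hairpin of FTL is shown because it is the piece of sequence through which iron regulatory proteins act on this message. It lies in the exon at chr19:48965336-48965357 on the plus strand of GRCh38.p14 (RefSeq), and the 6 capitals mark its loop.
FTL: tcttgcttcaaCAGTGTttgga
A hairpin of this form (an unpaired C, a 5-base stem and the loop CAGTGN) was found in the last 50 bases of 8 of 35116 RefSeq start windows, or 0.0228%. The 150 bases before the start of TFRC (chr3:196082091-196082240, minus strand) and of NCOA4 (chr10:46030624-46030773, minus strand) are shown because these genes rose together between 6 and 24 h of DAR. Capitals mark matches to the metal response element core, TGCGCNC or TGCACNC on either strand, and in TFRC 2 matches overlap.
TFRC: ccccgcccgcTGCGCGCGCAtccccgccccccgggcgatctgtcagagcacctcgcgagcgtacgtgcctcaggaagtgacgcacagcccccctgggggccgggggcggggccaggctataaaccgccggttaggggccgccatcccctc
NCOA4: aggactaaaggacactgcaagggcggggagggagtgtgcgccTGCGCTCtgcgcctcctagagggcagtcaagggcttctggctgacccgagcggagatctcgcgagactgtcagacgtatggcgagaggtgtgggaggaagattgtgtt
The core occurred in 3 of 11 windows of the 7 genes (TFRC, NCOA4 and SLC40A1), and in 29.6% of all 35116 windows of 300 bases. The antioxidant response element core TGACNNNGC was found in 1 of the 11 windows, an alternative start of NCOA4, against 13.3% of all windows. The E-box CACGTG was found in 0 of the 11 windows, against 7.26% of all windows.

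The values are array signals, deposited with each array scaled to a common trimmed mean of 500.1, and changes are differences of log2(signal + 29), which understates changes of dim genes. A gene was read from its brightest probe set, and 15437 genes lying above the array's 50th percentile on at least 4 arrays were tested. All 7 iron genes passed that filter. Changes carry the standard error (SE) of a limma fit across all genes with 4 lines per treatment, and a gene is said to rise or fall at an adjusted p under 0.05. All 10 plasma cell markers passed the filter, but not all were bright on every array. The lowest signals of MZB1, CD38 and SLAMF7 were 13.7, 9.3 and 26.2. Of the other lineages, 2 of 3 erythroid, 3 of 6 macrophage, 4 of 6 T cell and 3 of 6 hepatocyte markers measured did so, and their part in the results was not tested. Their summed signals were low, over fewer genes, although the T cell marker TRAT1 reached 1426. Summed over a list, treated arrays read 35234 to 141428 for plasma cell markers and 54.7 to 373 for erythroid markers. The sums were 76.4 to 634 for macrophage, 272 to 1669 for T cell and 224 to 1011 for hepatocyte markers. RNA came from whole cultures, so fewer cells with a message and less message per cell cannot be told apart.

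The arrays fell into 2 sets that matter for every comparison below. The 12 arrays of DAR and control 1 had median signals of 65.5 to 109, whereas the 16 arrays of ATO and control 2 had medians of 111 to 147. Between the untreated arrays themselves, control 2 against control 1, 28.2% of tested genes were higher and 16.8% lower at an adjusted p under 0.05, and the median gene was 0.21 higher on the log2 scale. When arrays were centred on their medians the median gene was -0.31 instead, with 1540 genes higher and 5647 lower, against 4349 higher and 2591 lower as deposited. Agent and array set therefore cannot be told apart, and ATO and DAR were not tested against each other.

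Among the 7 genes, 1 rose or fell in each comparison with control except DAR for 24 h. The share of all tested genes that rose and fell was 3.78% and 2.64% after 6 h of ATO, 2.73% and 2.27% after 24 h, and 6.35% and 5.38% after 48 h. For DAR the shares were 6.85% and 6.34% after 6 h and 0.492% and 0.13% after 24 h. The count of 0 iron genes after 24 h of DAR came from limma, with 1 gene, FTL, at an unadjusted p under 0.05. The median change over the 7 genes was -0.14 after 6 h of ATO, 0.02 after 24 h and 0.08 after 48 h, against 2.83e-05, 0.02 and 0.06 over all genes tested. It was -0.14 after 6 h of DAR and 0.03 after 24 h, against 0.02 at both times over all genes. Between 24 and 6 h of DAR the median over the 7 genes was 0.30, against -0.0045 over all genes. Treated arrays of a line share its control, with 1 array per line and treatment. The p-values therefore rest on the spread among the 4 lines, pooled over the treatments and drawn toward that of other genes.

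**Figure D1:**
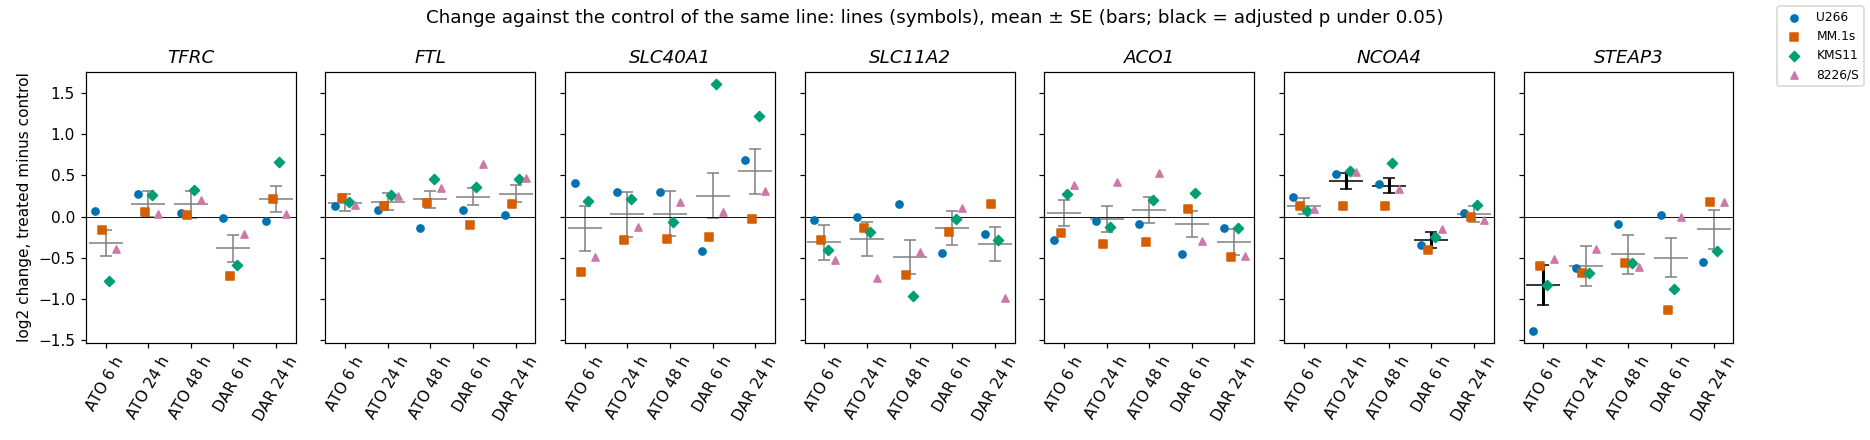
Change of each iron gene against the control of the same line (vertical axis, log2 change), for 5 treatments along the horizontal axis; symbols are the 4 lines and bars the mean ± SE of the limma fit, black where the adjusted p was under 0.05. NCOA4 lies above 0 in 12 of 12 ATO values and below 0 in 4 of 4 values after 6 h of DAR, and STEAP3 lies below 0 in 12 of 12 ATO values.

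NCOA4, the receptor that sends ferritin to the lysosome, was the iron gene with the most calls. It rose after 24 and 48 h of ATO, fell after 6 h of DAR and was back near its control after 24 h of DAR. Values below are given in the order U266, MM.1s, KMS11 and 8226/S. After 24 h of ATO the NCOA4 signal was 4842, 9639, 6071 and 7335, against 3373, 8855, 4142 and 5041 in control 2. After 48 h of ATO it was 4429, 9661, 6501 and 6364 against the same controls. Treated arrays were above their own control in all 4 lines at both times, while treated and control levels overlapped across lines. The change was 0.43 ± 0.09 after 24 h (SE, 4 lines, limma adjusted p = 0.00833) and 0.37 ± 0.09 after 48 h (adjusted p = 0.0109). After 6 h of ATO the signal was 3967, 9642, 4349 and 5374, a change of 0.13 ± 0.09 that was not called (adjusted p = 0.527). All 12 ATO arrays were thus above their control, but the 3 times of a line share 1 control array.

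In DAR cells the NCOA4 signal after 6 h was 4644, 8966, 4791 and 6142, against 5908, 11940.1, 5703 and 6807 in control 1. All 4 lines were below their control, a change of -0.29 ± 0.09 (SE, 4 lines, limma adjusted p = 0.043). After 24 h of DAR the signal was 6074, 11839.8, 6307 and 6595, a change from control of 0.03 ± 0.09 (adjusted p = 0.921). NCOA4 was higher after 24 h than after 6 h of DAR by 0.32 ± 0.09 (adjusted p = 0.0371), in a comparison where 4.06% of all genes were higher and 3.61% lower. The control arrays limit these calls: the NCOA4 difference, control 2 minus control 1, was -0.53 ± 0.10 (adjusted p = 0.00246), a difference larger than any of the treatment changes. With both controls of a line as 1 baseline the changes were 0.17 after 24 h of ATO (adjusted p = 0.408), 0.11 after 48 h (adjusted p = 0.573) and -0.02 after 6 h of DAR (adjusted p = 0.925). That fit also ended the call between 24 and 6 h of DAR (adjusted p = 0.39). Median centring ended both ATO calls (adjusted p = 0.0513 and 0.114), and leaving out U266 or KMS11 did so too (adjusted p of 0.0711 to 0.167). The DAR calls of NCOA4 were lost on leaving out any 1 line, with adjusted p of 0.0727 to 0.169 at 6 h and 0.0538 to 0.154 between 24 and 6 h.

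**Figure D2:**
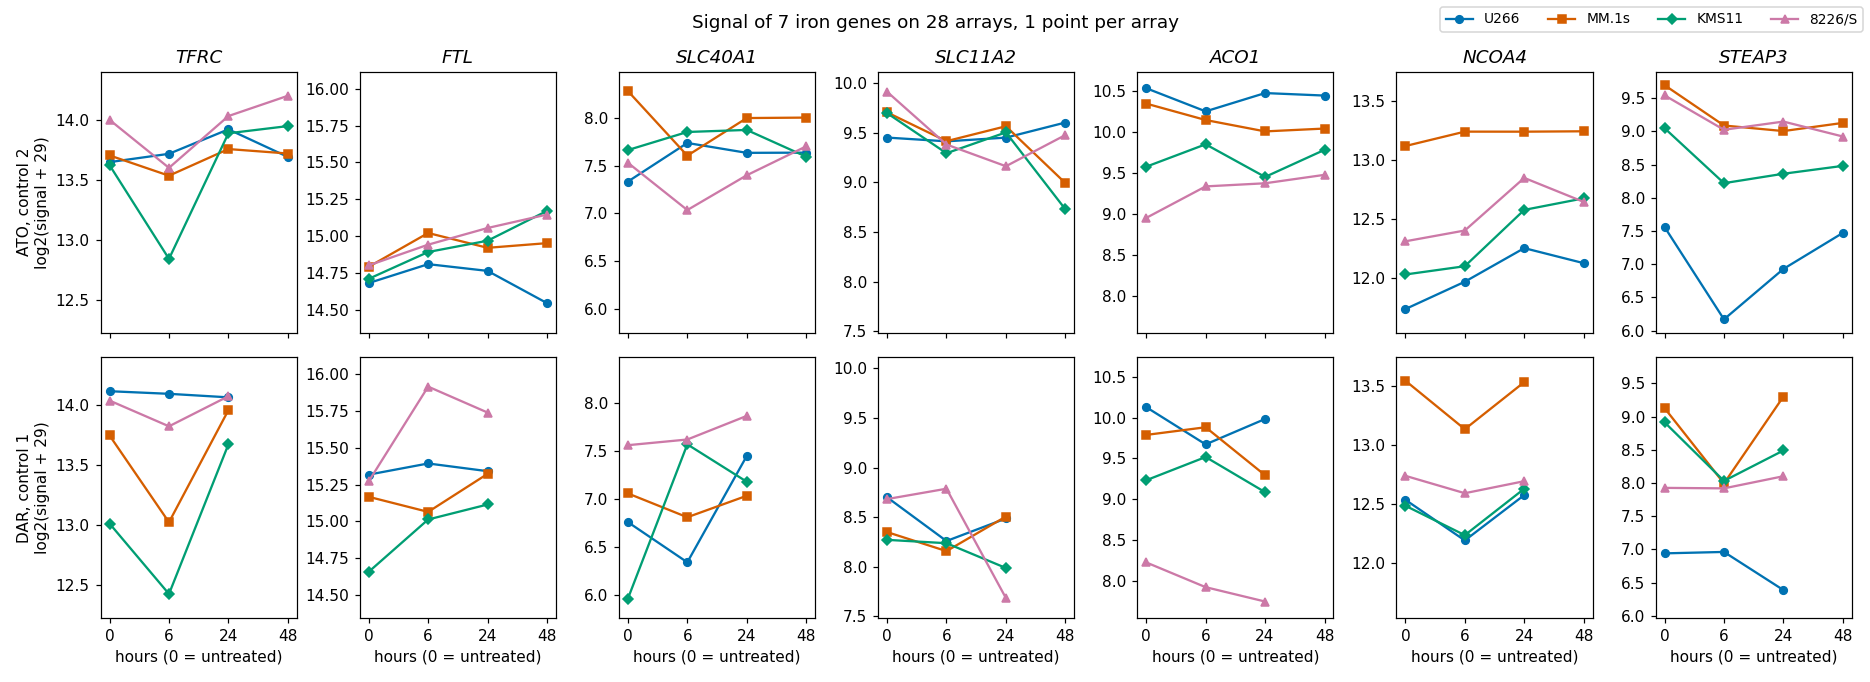
Signal of 7 iron genes on 28 arrays (vertical axis, log2 of signal + 29) against hours of treatment (horizontal axis, 0 is the untreated control, spacing not to scale), with ATO and control 2 in the upper row, DAR and control 1 in the lower row and 1 symbol per line. TFRC has a low point at 6 h in KMS11 with both agents, and NCOA4 is highest in MM.1s at every time.

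Of the uptake genes, STEAP3, the endosomal ferric reductase, fell after 6 h of ATO. Its signal was 42.9, 515, 269 and 492 after 6 h of ATO, against 160, 801, 501 and 717 in control 2. U266 had the lowest signal and the largest drop, and all 4 lines were below control. The change was -0.84 ± 0.24 (SE, 4 lines, limma adjusted p = 0.0377). At 24 h of ATO the signal was 92.8, 485, 300.1 and 538, and at 48 h it was 148, 530.5, 328 and 456. These changes of -0.60 ± 0.24 (adjusted p = 0.165) and -0.46 ± 0.24 (adjusted p = 0.247) were not called. All 12 ATO arrays lay below their control, but the ATO times of a line share a control array. With DAR for 6 h the signal was 95.7, 226, 233 and 213, against 93.9, 531, 454 and 214 in control 1. MM.1s and KMS11 were well below control there and the other lines level with it, a change of -0.50 ± 0.24 that was not called (adjusted p = 0.192). At 24 h of DAR STEAP3 was higher than control in 2 lines and lower in 2 (-0.16 ± 0.24, adjusted p = 0.825).

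The STEAP3 call at 6 h of ATO rested on a narrow margin. It was lost on leaving out any line (changes of -0.94 to -0.65, adjusted p of 0.0737 to 0.219) and with both controls as 1 baseline (-0.47, adjusted p = 0.264). In that pooled fit the DAR change at 6 h was called instead (-0.87, adjusted p = 0.0368). Between the untreated arrays STEAP3 differed by 0.73 ± 0.25, with control 2 higher (adjusted p = 0.0354). Its dimmer probe set, 1554830_a_at, gave -0.49 ± 0.30 at 6 h of ATO (adjusted p = 0.469) and -0.87 ± 0.30 at 48 h (adjusted p = 0.0691), and 16 of its 20 values lay below control.

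TFRC, the transferrin receptor, was called between times of DAR and in no comparison with control. After 6 h of DAR its signal was 17498, 8299, 5468 and 14489, against 17765, 13741, 8237 and 16826 in control 1. By 24 h of DAR it was 17144, 15916, 13050 and 17256. MM.1s and KMS11 held nearly all of this swing, and U266 was slightly lower at 24 h than at 6 h. TFRC rose between 6 and 24 h of DAR by 0.60 ± 0.16 (SE, 4 lines, limma adjusted p = 0.0204). The 6 h change from control was -0.39 ± 0.16, lower in 4 of 4 lines and not called (adjusted p = 0.118), and the 24 h change was 0.21 ± 0.16 (adjusted p = 0.569).

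ATO gave the same order of times in TFRC without a call for the gene's brightest probe set. The signal was 13455, 11849, 7307 and 12401 after 6 h, 15508, 13832, 15159 and 16753 after 24 h, and 13215, 13479, 15804 and 18842 after 48 h. Control 2 read 12821, 13331, 12598 and 16389. KMS11 at 6 h was the lowest ATO value, and all 4 lines were higher at 24 h than at 6 h. The difference between 24 and 6 h of ATO was 0.48 ± 0.16 (adjusted p = 0.207). In limma 0 of the 7 genes were called there, with 2 at an unadjusted p under 0.05 (TFRC and NCOA4), where 0.143% of all genes were higher and 0.317% lower. Between 48 and 24 h of ATO limma called 0 of the 7 genes, with 0 at an unadjusted p under 0.05, and 0% of all genes in either direction.

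A probe set is a group of short probes against 1 stretch of a message, and TFRC had 5 of them. The second brightest, 207332_s_at, rose between 6 and 24 h of ATO by 0.81 ± 0.18 (adjusted p = 0.0355) and between 6 and 24 h of DAR by 0.60 ± 0.18 (adjusted p = 0.0363) in a fit over 36703 probe sets. In that fit 0.392% of probe sets were called for the first comparison and 7.39% for the second. Its KMS11 signal was 3842 after 6 h and 10254 after 24 h of ATO, and 4917 after 6 h and 11442 after 24 h of DAR. The third, 237215_s_at, gave 0.68 ± 0.18 for ATO (adjusted p = 0.0927) and 0.50 ± 0.18 for DAR (adjusted p = 0.087), neither called. Of the dim pair, 240686_x_at gave -0.34 ± 0.38 for DAR (adjusted p = 0.675) and 237214_at did not pass the filter. The TFRC call for DAR was lost without MM.1s (0.49, adjusted p = 0.175), without KMS11 (0.39, adjusted p = 0.158) and when all 5 probe sets were averaged (0.35, adjusted p = 0.234). With the value at 0.60 it was also lost with both controls as 1 baseline (adjusted p = 0.133) and without a variance trend (adjusted p = 0.0612).

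**Figure D3:**
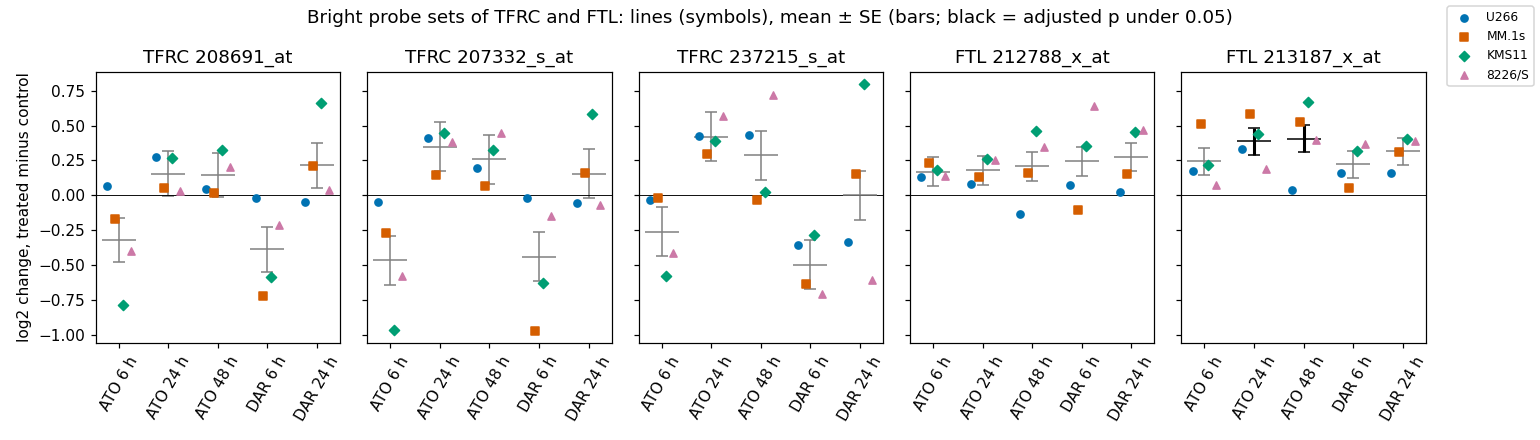
Changes against the control of the same line (vertical axis, log2) for 3 probe sets of TFRC and 2 of FTL, in 5 treatments along the horizontal axis; symbols are the 4 lines and bars the mean ± SE of a limma fit over all probe sets, black where the adjusted p was under 0.05. The 3 TFRC probe sets have their lowest means at 6 h of either agent, and FTL 213187_x_at lies above 0 in all 20 values.

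SLC11A2, which carries iron out of the endosome, was not called in any comparison by its brightest probe set, 203125_x_at. It was lower than control in 17 of 20 treated arrays, which share 8 control arrays. Its signal after 48 h of ATO was 748, 480.1, 395 and 683, against 670.4, 805, 801 and 934 in control 2. U266 went the other way from the remaining lines, and the change was -0.49 ± 0.21 (SE, 4 lines, limma adjusted p = 0.138). After 24 h of DAR it was 330, 335, 225 and 177, against 387, 297, 280.0 and 382 in control 1, a change of -0.33 ± 0.21 (adjusted p = 0.486). The probe sets of SLC11A2 disagreed. In the fit over all probe sets 210047_at fell after 6 h of DAR by -0.98 ± 0.25 (adjusted p = 0.00925) and was lower than control in 19 of 20 arrays, while 203124_s_at was higher in 11 of 20. The signal of 210047_at after 6 h of DAR was 46.2, 128, 59.7 and 111, against 168, 205, 174 and 207 in control 1, with no overlap. These signals were low, and the U266 value after 6 h of DAR stood at the 38th percentile of its array. In the fit over all probe sets 12.4% were called after 6 h of DAR. The untreated arrays differed by 1.19 ± 0.18 for 203125_x_at, higher in control 2 (limma adjusted p = 0.000718 over genes), against 0.14 ± 0.21 for 203124_s_at and 0.18 ± 0.22 for 203123_s_at.

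FTL, the ferritin light chain, had 2 probe sets, both bright on all 28 arrays, and both bear the suffix that Affymetrix uses for probes that can also bind other transcripts. FTL has processed pseudogenes, so the signal may include close copies. The brighter, 212788_x_at, was above control in 18 of 20 arrays with changes of 0.17 to 0.28 and an SE of 0.10, none called (adjusted p of 0.126 to 0.407). The other, 213187_x_at, was above control in 20 of 20 arrays, which share 8 control arrays. It rose after 24 h of ATO by 0.39 ± 0.10 (adjusted p = 0.0237) and after 48 h by 0.41 ± 0.10 (adjusted p = 0.00872). In the fit over probe sets, 3.35% were called after 24 h of ATO and 8.44% after 48 h.

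The signal of 213187_x_at after 48 h of ATO was 20110, 29820, 30241 and 30272, against 19580.1, 20730, 19043 and 22999 in control 2. U266 was nearly level with its control there and the other 3 lines were above all 4 arrays of control 2. After 24 h of ATO it was 24622, 31144, 25864 and 26222, above the 4 controls without overlap. Its change was 0.24 ± 0.10 after 6 h of ATO (adjusted p = 0.177), where 4.11% of probe sets were called. With DAR the change was 0.22 ± 0.10 after 6 h (adjusted p = 0.139) and 0.32 ± 0.10 after 24 h (adjusted p = 0.112), where 0.954% of probe sets were called. Averaging both probe sets gave FTL 0.31 after 48 h of ATO (adjusted p = 0.0391 over genes). The FTL difference, control 2 minus control 1, was -0.36 ± 0.11 for the brighter probe set (adjusted p = 0.0237). That sign turned under quantile normalisation (0.06, adjusted p = 0.579). The highest FTL signals were 61733 and 54645 in 8226/S after 6 and 24 h of DAR, against 39537 in its control 1. The highest signal of any probe set was 85536 on the arrays of DAR and control 1. On those of ATO and control 2 it was 45727. Whether this difference at the bright end shaped the FTL values was not tested.

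SLC40A1, ferroportin, gave no call by its brightest probe set, 233123_at, whose signal ranged from 33.1 to 281 over the 28 arrays. After 24 h of DAR it read 145, 102, 116 and 204, against 79.1, 104, 33.1 and 159 in control 1. KMS11 had the lowest control and the largest difference, and the mean change was 0.55 ± 0.27 (SE, 4 lines, limma adjusted p = 0.362). After ATO its changes were -0.14, 0.02 and 0.03 at 6, 24 and 48 h with an SE of 0.27, and 2 lines were up and 2 down at each time. The second probe set, 223044_at, was called after 6 h of DAR. It read 3.15, 93.6, 94.9 and 148, against 12.4, 185, 235 and 351 in control 1, lower in 4 of 4 lines. It fell by 0.84 ± 0.26 on the log2 scale (adjusted p = 0.0321 over probe sets), against 0.25 ± 0.27 for 233123_at (adjusted p = 0.635). The mean changes of the 2 probe sets of ferroportin thus had opposite signs after 6 h of DAR. By line, however, 233123_at changed by -0.42, -0.25, 1.61 and 0.06, so the positive mean came from KMS11. Between the untreated arrays 233123_at differed by 0.87 ± 0.33, with control 2 higher (limma adjusted p = 0.0538 over genes).

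ACO1, the iron regulatory protein that doubles as cytosolic aconitase, gave no call after either agent. Its changes from control lay between -0.32 and 0.08 with an SE of 0.16, and the lowest adjusted p was 0.36, after 24 h of DAR. There it was lower in 4 of 4 lines, at 983, 599, 515 and 186, against 1090, 855, 573 and 271 in control 1. In 8226/S the ATO values of 619, 636 and 685 at 6, 24 and 48 h were above its control 2 of 467. In MM.1s the ATO values of 1108, 1003 and 1028 were below its control 2 of 1277.

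The lines were also compared before treatment, with the 2 untreated arrays of a line standing in as its replicates. Among untreated arrays ACO1, NCOA4 and STEAP3 differed between lines (limma F test with control number in the fit, adjusted p = 0.000264, 0.000237 and 0.00215), where 51.7% of all tested genes did. NCOA4 was 8855 and 11940.1 in MM.1s (control 2 and control 1), and at most 6807 in the other lines. The log2 difference was -1.20 ± 0.15 for U266 minus MM.1s (SE, adjusted p = 0.000156). MM.1s exceeded KMS11 by 1.08 ± 0.15 (adjusted p = 0.00056) and 8226/S by 0.81 ± 0.15 (adjusted p = 0.00194). Differences among the other 3 lines were not called (adjusted p of 0.0594 to 0.58).

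ACO1 ran in the order U266, MM.1s, KMS11 and 8226/S, with 1459 and 1090, 1277 and 855, 736 and 573, and 467 and 271 in control 2 and control 1. The neighbours U266 and MM.1s did not differ beyond their spread (0.26 ± 0.21, adjusted p = 0.413). MM.1s exceeded KMS11 by 0.66 ± 0.21 (adjusted p = 0.0497) and KMS11 exceeded 8226/S by 0.82 ± 0.21 (adjusted p = 0.0169). STEAP3 was lowest in U266, at 160 and 93.9, with log2 differences of -2.16 to -1.48 from the other lines and an SE of 0.35 (adjusted p of 0.00108 to 0.00744). The other 3 lines did not differ in STEAP3 (adjusted p of 0.197 to 0.669).

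For TFRC the F test gave an adjusted p of 0.0577, and KMS11 was lower than 8226/S by -0.70 ± 0.21 (adjusted p = 0.0283). FTL, SLC40A1 and SLC11A2 gave no call between any pair of lines (adjusted p of 0.13 to 0.945). As a background, the pairs differed in 29.1% of all tested genes for U266 and MM.1s, 31.3% for U266 and KMS11, and 35.7% for U266 and 8226/S. The shares were 21% for MM.1s and KMS11, 27.9% for MM.1s and 8226/S, and 25.6% for KMS11 and 8226/S.

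**Figure D4:**
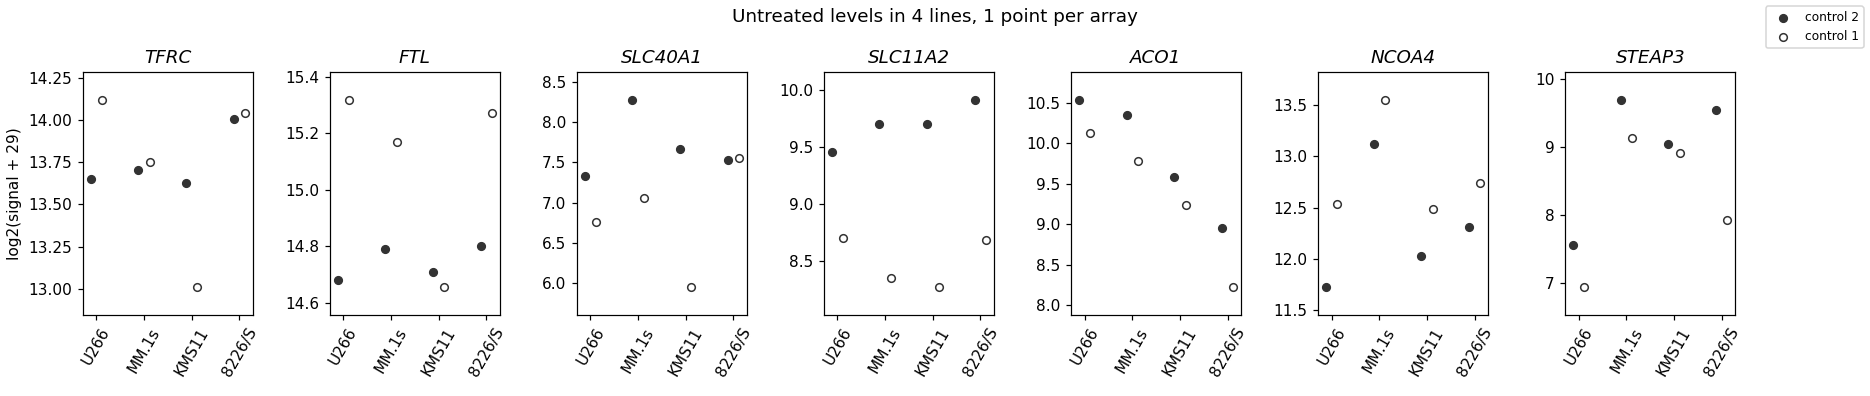
Untreated signal (vertical axis, log2 of signal + 29) in 4 lines (horizontal axis), 1 filled symbol for control 2 and 1 open symbol for control 1. The 2 symbols of a line stand apart in the same direction in all 4 lines for SLC11A2, ACO1 and STEAP3 (control 2 higher) and for NCOA4 (control 2 lower).

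Whether the lines answered an arsenical differently was tested as a line difference in the mean response. DAR doses differed between lines, so for DAR line and dose cannot be told apart. In limma 0 of the 7 genes were called for ATO and 0 for DAR, with 0 at an unadjusted p under 0.05 in both. The lowest unadjusted p was 0.23 for ATO and 0.0996 for DAR, and 0.11% and 0.0324% of all genes were called. In the untreated arrays 5 of the 7 genes differed between control 2 and control 1. SLC11A2, ACO1 and STEAP3 were higher in control 2, and FTL and NCOA4 lower, where 28.2% of all genes were higher and 16.8% lower. ACO1 was higher by 0.51 ± 0.15 (adjusted p = 0.0191), which median centring brought to -0.02 (adjusted p = 0.946). By its brightest probe set TFRC showed a difference of 0.02 ± 0.15 as deposited (adjusted p = 0.941), and -0.51 after median centring (adjusted p = 0.00399). Its other bright probe sets differed from this. In the limma fit over probe sets 207332_s_at was lower in control 2 (-0.53 ± 0.13, adjusted p = 0.00698). The value for 237215_s_at was 0.27 ± 0.17 (adjusted p = 0.232).

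Only in 8226/S were both agents used at 2 µM, with 1 array each, so these values are a description without a test. The change of NCOA4 there was 0.09 after 6 h and 0.54 after 24 h of ATO, and -0.15 and -0.05 after the same hours of DAR. FTL (212788_x_at) changed by 0.14 and 0.25 with ATO, and by 0.64 and 0.47 with DAR. STEAP3 changed by -0.52 and -0.39 with ATO, and by -0.01 and 0.18 with DAR. ACO1 changed by 0.39 and 0.42 with ATO, and by -0.30 and -0.48 with DAR. TFRC changed by -0.40 and 0.03 with ATO, and by -0.22 and 0.04 with DAR. SLC11A2 changed by -0.53 and -0.75 with ATO, and by 0.10 and -0.997 with DAR. SLC40A1 changed by -0.49 and -0.13 with ATO, and by 0.06 and 0.31 with DAR. In each case the ATO value was set against control 2 and the DAR value against control 1. For STEAP3 these controls read 717 and 214. Its treated signals were 492 and 538 with ATO, and 213 and 246 with DAR.

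Other genes of iron and heme handling were read from 4 lists. Of 16 heme genes tested, 4 rose after 6 h of ATO, 5 after 24 h and 7 after 48 h, and none fell; after 6 h of DAR 1 rose and 1 fell. Of all tested genes 3.78%, 2.73% and 6.35% rose at the ATO times, and 6.85% rose and 6.34% fell after 6 h of DAR. The median of the list was 0.16, 0.26 and 0.38 at the ATO times, and 0.04 after 6 h of DAR. HMOX1, the heme oxygenase that frees iron from heme, rose most in this list, by 4.55 ± 0.42 after 6 h of ATO and 2.92 ± 0.42 after 6 h of DAR (limma adjusted p = 2.26e-07 and 5.31e-05).

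SLC48A1 carries heme from endosome and lysosome to the cytosol. Its signal after 48 h of ATO was 3648, 4218, 2970.4 and 5375, against 753, 1076, 591 and 1182 in control 2, with no overlap. It rose by 1.53 ± 0.20, 1.93 ± 0.20 and 2.15 ± 0.20 at 6, 24 and 48 h (adjusted p = 3.8e-05, 2.49e-06 and 4.1e-07). BLVRB, a biliverdin reductase, rose by 1.89 ± 0.27 after 24 h and 2.01 ± 0.27 after 48 h of ATO (adjusted p = 0.000118 and 3.93e-05). ABCB6, a porphyrin transporter, rose by 1.40 ± 0.23, 1.44 ± 0.23 and 1.41 ± 0.23 at the 3 ATO times (adjusted p of 0.000355 to 0.000499). FECH, the ferrochelatase that inserts iron into heme, rose by 0.84 ± 0.16, 0.74 ± 0.16 and 0.74 ± 0.16 (adjusted p = 0.00186, 0.00741 and 0.00324). All 3 FECH calls were lost without KMS11 and with probe sets averaged (changes of 0.40 to 0.49), and the 24 h call also without MM.1s. BLVRA and UROD rose after 48 h of ATO by 0.49 ± 0.15 and 0.43 ± 0.12 (adjusted p = 0.0374 and 0.0203), and both calls were lost without U266, MM.1s or KMS11, with median centring and without a variance trend. BLVRA was also lost with probe sets averaged (0.34, adjusted p = 0.409) and with both controls as 1 baseline (0.18, adjusted p = 0.609). The UROD change was -0.15 with both controls as 1 baseline (adjusted p = 0.646). FLVCR1, a heme exporter, fell by 0.61 ± 0.17 on the log2 scale after 6 h of DAR (adjusted p = 0.0206), a call that was lost with pooled controls, with quantile normalisation and without U266, MM.1s or KMS11.

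Of 22 further transport and regulation genes tested, limma called 0 after 6 h of ATO (1 at an unadjusted p under 0.05), 1 after 24 h and 4 after 48 h. These 4 were 3 that rose and 1 that fell, where 6.35% of all genes rose and 5.38% fell. At 6 and 24 h of ATO 3.78% and 2.73% of all genes rose, and 2.64% and 2.27% fell. BDH2, linked to siderophore synthesis, rose by 0.68 ± 0.15 after 24 h and 0.89 ± 0.15 after 48 h (adjusted p = 0.00887 and 0.000432), and the 24 h call was lost without U266 or MM.1s and with pooled controls. With probe sets averaged both were lost, at 0.36 (adjusted p = 0.38) and 0.60 (adjusted p = 0.0655). FBXL5, the iron-sensing ubiquitin ligase subunit that targets IREB2, rose after 48 h by 0.71 ± 0.15 (adjusted p = 0.00314). Its signal was 1920.1, 3192, 2072 and 828, against 1322, 2319, 705 and 655 in control 2, higher in 4 of 4 lines. Without KMS11 (0.44), or with its probe sets averaged (0.40), FBXL5 was no longer called. HEPH, a copper-containing ferroxidase, rose by 1.62 ± 0.43 (adjusted p = 0.0163), with 1796 in MM.1s and 668 in KMS11 against 116 and 123 in control 2. That call was lost without either of these lines. SLC39A8, a zinc, manganese and iron importer, fell by 0.83 ± 0.20 on the log2 scale (adjusted p = 0.00751), with 1726, 1702, 1009 and 3513 against 2747, 3773, 3484 and 2963 in control 2. It was higher than control in 8226/S, and the call was lost without MM.1s or KMS11 and with probe sets averaged (-0.36, adjusted p = 0.135).

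After 6 h of DAR 1 of the 22 genes rose and 2 fell, where 6.85% of all genes rose and 6.34% fell, so the share called was near that of all genes. STEAP1, a relative of STEAP3, read 241, 5110, 1725 and 282, against 225, 408, 169 and 75.8 in control 1. MM.1s and KMS11 stood far above all controls, U266 was level, and the change was 2.09 ± 0.42 (limma adjusted p = 0.00155). Without MM.1s it was 1.60 and no longer called (adjusted p = 0.0546). HERC2, a ubiquitin ligase reported to act on NCOA4, fell by 0.72 ± 0.16 (adjusted p = 0.00402), but with probe sets averaged the change was -0.20 (adjusted p = 0.476). PCBP1, an iron chaperone that loads ferritin, fell by 0.29 ± 0.09 (adjusted p = 0.043), a call that was lost without MM.1s, KMS11 or 8226/S, with median centring, without the filter and without a variance trend. After 24 h of DAR limma called 0 genes of the list, with 3 at an unadjusted p under 0.05. There 0.492% of all genes rose and 0.13% fell.

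Mitochondrial iron and iron-sulfur genes numbered 18 tested, of which 2, 1 and 3 rose at the 3 ATO times and none fell. Of all tested genes 3.78%, 2.73% and 6.35% rose at these times. HSPA9, a mitochondrial chaperone, rose by 0.55 ± 0.12 after 6 h and 0.40 ± 0.12 after 48 h (limma adjusted p = 0.00601 and 0.0286). ISCA1, an assembly factor, rose by 0.42 ± 0.10, 0.35 ± 0.10 and 0.35 ± 0.10 (adjusted p = 0.0118, 0.0443 and 0.0225). ISCU, the scaffold on which clusters are built, rose by 0.64 ± 0.16 after 48 h (adjusted p = 0.0128). After 6 h of DAR FDX1 rose by 0.33 ± 0.10 (adjusted p = 0.0347), and GLRX5 and CIAPIN1 fell by 0.60 ± 0.14 and 0.36 ± 0.11 on the log2 scale (adjusted p = 0.00638 and 0.0278). GLRX5 was 0.11 higher with both controls as 1 baseline (adjusted p = 0.825). ISCA1 and ISCU lost their ATO calls in that fit and without MM.1s or KMS11, and ISCA1 also without U266 and with median centring. With probe sets averaged and without a variance trend ISCA1 also lost its 24 and 48 h calls. Without the filter it lost that at 24 h. HSPA9 lost both calls without MM.1s or KMS11, and the 48 h change was 0.17 with probe sets averaged (adjusted p = 0.38). The 48 h call of HSPA9 was also lost with median centring and without a variance trend. FDX1 was lost without U266, MM.1s or 8226/S, with median centring, without a variance trend and with probe sets averaged (0.17, adjusted p = 0.533). CIAPIN1 was lost without MM.1s, KMS11 or 8226/S, with quantile normalisation, without a variance trend and with pooled controls (-0.14, adjusted p = 0.519). DAR for 24 h gave 0 calls in limma, with 4 at an unadjusted p under 0.05, where 0.492% of all genes rose and 0.13% fell.

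Of 4 other messages known to carry an iron-responsive element, EPAS1, a hypoxia-inducible factor subunit, rose after 6 h of DAR by 0.84 ± 0.23 (limma adjusted p = 0.0156). It read 29.98, 475, 168 and 4161, against 8.83, 380, 78.0 and 1411 in control 1. The 8226/S line was highest by far, and the call was lost without it, without KMS11, with pooled controls and with probe sets averaged (0.05, adjusted p = 0.893). Of all tested genes 6.85% rose and 6.34% fell after 6 h of DAR. At the 3 ATO times 0 of the 4 were called by limma and 0 had an unadjusted p under 0.05. At these times 3.78%, 2.73% and 6.35% of all genes rose, and 2.64%, 2.27% and 5.38% fell. After 24 h of DAR, 0 of 16 heme genes and 0 of these 4 messages were called, with 4 and 1 at an unadjusted p under 0.05. There 0.492% of all genes rose and 0.13% fell, so few calls were to be had.

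**Figure D5:**
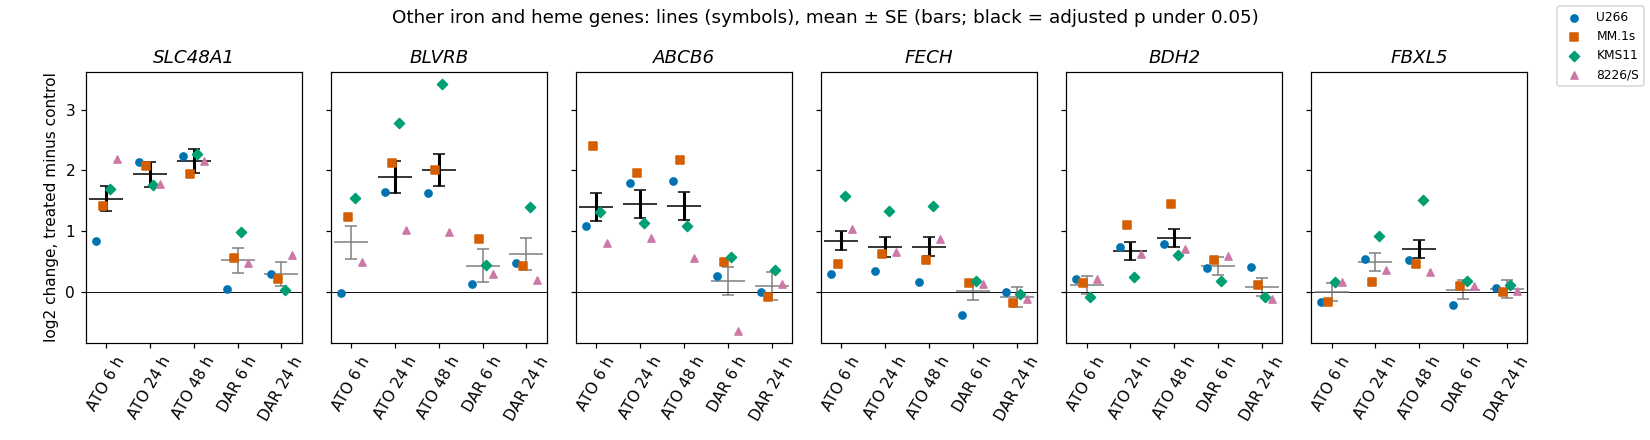
Changes against the control of the same line (vertical axis, log2) of 6 genes of heme and iron handling in 5 treatments along the horizontal axis; symbols are the 4 lines and bars the mean ± SE of the limma fit, black where the adjusted p was under 0.05. SLC48A1 rises at every ATO time, to 2.15 at 48 h, and none of the 6 genes is called after DAR.

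The genes whose changes ran most alike to each iron gene over the 20 treated arrays were read by Pearson's r, as a description: the 20 differences share 8 control arrays and 4 lines. For NCOA4 they were DDX42 (0.87), DDX6 (0.86) and LAMTOR5 (0.84), and for TFRC they were DDX17 (0.81), PMS1 (0.77) and PIK3R4 (0.77). FTL was closest to GAPDH (0.92), HUWE1 (0.91) and RPS15A (0.91). ACO1 was closest to PIP4P1 (0.90), SLC40A1 to SFRP1 (0.84), SLC11A2 to CPA5 (0.79) and STEAP3 to RABGGTB (0.73). Among the iron genes themselves the highest r was 0.58, for TFRC and NCOA4, and the lowest -0.41, for ACO1 and STEAP3. No iron gene appeared among the 3 closest of another.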

How the data were processed

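The deposited table holds 1 intensity value per probe set and array, made by the authors from biotin-labelled complementary RNA of RNeasy-purified total RNA, per the labels. GCOS is named, without a version, in the submitters' processing notes. Genes were named through the platform table, of whose 54675 probe sets 41091 had 1 symbol, with symbols updated from RefSeq. Log2(signal + 29) was tested with limma 3.58.1 in R 4.3.3: 8 baselines (line by control number), 5 treatments, a variance trend and 15 residual degrees of freedom, with Benjamini-Hochberg adjustment over 15437 genes (36703 probe sets for single probe sets). The model was tested on simulated data. The members and lists were chosen with earlier results of these data known. By the rule for naming, every iron gene and its probe sets are described, and listed genes when called in 1 of 5 comparisons, at most 8 per list. Arrays of the same line deviated together between groups (mean r of 0.737, lowest 0.600, against at most -0.0519 between lines), so line is the pairing. No replicate arrays of one line and treatment exist here, so p-values measure the spread between lines. The number of arrays limits precision.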

Additional observations from a re-analysis of the deposited data

Results flagged for a closer look

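In 49 groups of 4 values (7 genes in 5 treatments and 2 controls) 1 value stood apart from the other 3 in 2 groups, where chance gives about 1 in 20 groups. The NCOA4 change after 24 h of ATO was 0.12 in MM.1s, against 0.52 to 0.55 in the other lines. The STEAP3 change after 48 h of ATO was -0.0891 in U266, while the remaining lines lay at -0.62 to -0.57. Changes differed between times in the limma test of the difference for TFRC, by 0.60 on the log2 scale between 24 and 6 h of DAR, and for NCOA4, by 0.32. NCOA4 changed by 0.13 on average after 6 h of ATO, up in 4 of 4 lines, and by -0.29 after 6 h of DAR, down in 4 of 4 lines. That difference between agents was not tested, and each agent had its own control arrays.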

How the results depend on the processing

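The counts of iron genes called changed as follows. After 6 h of ATO the count of 1 became 0 with offset 1, without the filter, with pooled controls and on leaving out any line. After 24 and 48 h of ATO it became 0 with median centring and with pooled controls, and was 0 to 1 with 1 line left out. After 48 h it was 3 when probe sets were averaged. After 6 h of DAR it became 0 with quantile normalisation, without the filter, without a variance trend and on leaving out any line. Between 24 and 6 h of DAR the count of 2 became 1 with median centring and with averaged probe sets, 0 without a variance trend and with pooled controls, and 0 to 1 with 1 line left out. Between control 2 and control 1 the count of 5 became 2 with quantile normalisation and 3 with averaged probe sets or no variance trend, and was 2 to 5 with 1 line left out, an alternative chosen after seeing the data. Without the line as a replicate block the pairing is lost: the counts were 0 after 6, 24 and 48 h of ATO, 0 after 6 h of DAR, 0 between 24 and 6 h of DAR and 1 between the controls. In the test among untreated lines the term left out was control number, and the count was 1 instead of 3. Signs turned for FTL (0.0643, quantile normalisation), TFRC (-0.51) and ACO1 (-0.0168, both median centring) between the controls, UROD after 48 h of ATO (-0.15) and GLRX5 after 6 h of DAR (0.11, both with pooled controls), SLC40A1 after 6 h of DAR (-0.84, 223044_at) and TFRC between 24 and 6 h of DAR (-0.34, 240686_x_at). The cause was not tested. Over all settings 95 values of these counts were within 1.5 times the main count (counts that stayed at 0 included), 42 were lower and 1 was higher. HMOX1 after ATO and SLC48A1 after 48 h of ATO were called in 13 of 13 alternatives. Over all genes, 990, 772 and 1812 were called at the 3 ATO times and 2036 and 96 after 6 and 24 h of DAR. Without the block these were 30, 15, 18, 47 and 0; with pooled controls 1253, 1144, 2573, 2205 and 492. Median centring gave 491 higher and 914 lower after 48 h of ATO, against 981 and 831, 692 and 1154 after 6 h of DAR, against 1057 and 979, 41 and 32 after 24 h of DAR, against 76 and 20, and 5 and 27 between 24 and 6 h of ATO, against 22 and 49. Quantile normalisation gave 72 and 78 for the last of these. With 1 line left out the calls ranged over 255 to 803, 205 to 951 and 648 to 1976 at the 3 ATO times, 1094 to 1837 after 6 h of DAR and 0 to 87 after 24 h of DAR, lowest without KMS11 (at 24 h of ATO equally without MM.1s), except for 24 h of DAR, lowest without 8226/S. Signal near background limits STEAP3 in U266, both probe sets of SLC40A1 and the probe set 210047_at of SLC11A2. The median signal of 210047_at was 129. It lay above the array median on 17 arrays, against 24 and 19 for the SLC40A1 probe sets 233123_at and 223044_at.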
